A study of Rattus norvegicus with 32 samples.

Results

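The nuclear genes for subunits of mitochondrial complex I were measured as polyadenylated RNA in 32 libraries of rat nucleus accumbens shell. Members were the rows of the count table named Ndufa, Ndufab, Ndufb, Ndufc, Ndufs or Ndufv with a number, a rule that leaves out the assembly factors (Ndufaf). It found 38 of 34322 gene rows, 11 named Ndufs or Ndufv and 27 with the other names, and 37 of the 38 passed a filter on low counts that kept 17059 genes. All rats had fear conditioning with shocks, in which the odour of lemon (the anxiety cue) or a neutral cue was presented, and that cue was present again in later tests of anxiety. Before those tests they received cannabidiol (CBD, a non-intoxicating cannabinoid of the cannabis plant) or vehicle. Tissue was taken after a last shock, which all 4 groups shared, so no group was free of shock. The groups were CBD with the anxiety cue, vehicle with the anxiety cue, CBD with the neutral cue and vehicle with the neutral cue, here called CBD-anxiety, vehicle-anxiety, CBD-neutral and vehicle-neutral, with 8 libraries each. The labels give the genotype of all rats as WT and the tissue as brain, with the region named in the series' design text. They give no strain, sex, age, dose or batch. Whether every library is from its own rat is not stated, so p-values measure only how these libraries vary, and some of that variation may be technical.

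Complex I, NADH:ubiquinone oxidoreductase, is the entry point of electrons from NADH into the respiratory chain. It is shaped like an L. The peripheral arm reaches into the mitochondrial matrix, where NADH is oxidised at a flavin and electrons pass along iron-sulfur clusters to ubiquinone, and the other arm lies in the inner membrane and pumps protons. Neurons depend on oxidative phosphorylation for most of their ATP, and loss of complex I subunits causes brain disease such as Leigh syndrome in humans. The 7 nuclear-encoded core subunits, among them those that carry the redox centres and the ubiquinone site, all have names in Ndufs or Ndufv. The remaining members are supernumerary subunits, which are needed for assembly and stability. The names do not follow the structure throughout. Ndufs5 lies in the membrane arm, while Ndufa2, Ndufa5, Ndufa6, Ndufa7, Ndufa9 and Ndufa12 lie in the matrix arm, and Ndufa4 is now assigned to complex IV. Core subunits encoded by the mitochondrial genome are not analysed here.

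Promoter sequences were looked up because the members were high or low together in some libraries. A RefSeq table for the build GRCr8, which holds 250 bases before and 50 bases after each gene's start, matched 35 of the 38 members. Letters of binding motifs of factors known for nuclear respiratory genes were searched on both strands. The letters AAGATGGC, a core of the YY1 motif, were in 8 of 35 member promoters (22.9%), against 3.44% of the 27457 promoters in the table, and those 8 belonged to 3 of 10 Ndufs and Ndufv genes and 5 of 25 others. They are given here in 30 bases each from 5′ to 3′ on the gene's strand, with the matched letters in capitals. The row of Ndufs6 is that of the RefSeq gene now carrying this symbol.
Ndufs4 (chr2:47794892-47794921, minus strand): ttgcccacaggAAGATGGCggcggtctcaa
Ndufs6 (chr1:31797412-31797441, plus strand): gggtcgtcggcAAGATGGCggcggcgctga
Ndufs7 (chr7:10110476-10110505, minus strand): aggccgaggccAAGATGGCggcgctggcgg
Ndufa2 (chr18:28631840-28631869, minus strand): ctttgctagcaAAGATGGCggccgcaagcc
Ndufa3 (chr1:74515524-74515553, minus strand): tgtccaagaccAAGATGGCtgctagtaagt
Ndufa6 (chr7:115750284-115750313, minus strand): gcttccttagcAAGATGGCggccgcggcca
Ndufa9 (chr4:161374142-161374171, minus strand): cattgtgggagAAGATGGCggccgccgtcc
Ndufb8 (chr1:253362897-253362926, minus strand): cggagaaggtgAAGATGGCggcgtcccggg
All 8 matches read in the direction of the gene and began 5 to 27 bases after its start. The matched letters contain ATG, and whether that is the start codon was not examined.

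The ETS letters CCGGAAG, bound by GABP among other factors, were in 7 member promoters (20%, against 9.22% of all promoters). They were found in Ndufa1, Ndufa2, Ndufa6, Ndufa13, Ndufb7, Ndufs1 and Ndufs8. The NRF1 core GCATGCGC was in 2 (5.71%, against 2.66%), the GC box GGGCGG in 16 (45.7%, against 34.9%) and CCAAT in 11 (31.4%, against 37.7%). TATAAA was in 3 (8.57%, against 14.3%), TGACGT in 2 (5.71%, against 8.22%) and the ERR letters CAAGGTCA in 1 (2.86%, against 1.48%). The median GC content was 57.3% in member promoters and 52.3% in all. These are matches of letters, with no measurement of binding. Shown next are the 250 bases before the start of Ndufa12 and Ndufc1, which were among the 4 members with the smallest p-values in at least 1 comparison below, and of Ndufa10, the member nearest to 0 for the cue in vehicle rats and for CBD under the neutral cue. Capitals mark matches to the letters above other than TATAAA.
Ndufa12 (chr7:30658066-30658315, plus strand): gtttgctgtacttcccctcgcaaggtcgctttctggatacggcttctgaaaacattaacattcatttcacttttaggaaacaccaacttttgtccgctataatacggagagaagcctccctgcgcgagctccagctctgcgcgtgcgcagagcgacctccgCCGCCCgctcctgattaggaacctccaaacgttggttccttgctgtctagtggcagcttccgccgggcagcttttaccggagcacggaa
Ndufc1 (chr2:137601736-137601985, minus strand): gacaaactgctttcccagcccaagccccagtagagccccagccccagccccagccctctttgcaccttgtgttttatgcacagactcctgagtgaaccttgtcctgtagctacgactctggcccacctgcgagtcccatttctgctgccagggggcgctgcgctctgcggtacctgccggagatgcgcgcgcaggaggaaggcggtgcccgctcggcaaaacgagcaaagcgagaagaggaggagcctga
Ndufa10 (chr9:100489265-100489514, minus strand): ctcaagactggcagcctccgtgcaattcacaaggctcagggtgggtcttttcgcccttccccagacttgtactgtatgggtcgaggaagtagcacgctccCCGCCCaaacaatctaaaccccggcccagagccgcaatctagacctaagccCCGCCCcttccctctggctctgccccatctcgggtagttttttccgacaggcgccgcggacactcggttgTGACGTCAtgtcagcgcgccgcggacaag
In these 250 bases Ndufa12 held 1 GC box, Ndufc1 held no match, and Ndufa10 held 2 GC boxes and an overlapping pair of TGACGT matches on the 2 strands.

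Library totals were 11.65 to 24 M counts. Levels are given as CPM, counts scaled to a library total of 1 M, or as log2 CPM scaled by TMM. CPM are not adjusted for transcript length, so they compare libraries and not genes. The 14 markers of medium spiny neurons, the main neurons of the accumbens, were all measured, and their summed level was 3150 to 10700 CPM in CBD-anxiety, 2090 to 10300 CPM in vehicle-anxiety, 6470 to 9060 CPM in CBD-neutral and 1840 to 8960 CPM in vehicle-neutral libraries. Single libraries were low in them: Drd1, the dopamine D1 receptor, was at 57.3 to 183 CPM in the 6 libraries with 20 CPM or more of Slc17a6, a glutamate transporter of subcortical neurons (2 CBD-anxiety, 1 vehicle-anxiety and 3 vehicle-neutral libraries), against 258 CPM or more in the others. Alb, the albumin of liver, was at 20 CPM or more in 4 CBD-anxiety libraries, 2 vehicle-anxiety libraries, 4 CBD-neutral libraries and no vehicle-neutral library. Plin1, a coat protein of fat droplets, was at 5 CPM or more in 2 CBD-anxiety libraries, 3 vehicle-anxiety libraries, no CBD-neutral library and 5 vehicle-neutral libraries. In bulk tissue, fewer cells of a type and less RNA per cell cannot be told apart.

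Ndufs6 was the member left out by the filter, with 0 to 7 counts per library and 100 counts over all 32. The gene table of GRCr8 gives the symbol Ndufs6 to the gene that stands in the count table as LOC679739, which had 321 to 839 counts per library. LOC679739 had median levels of 30 CPM in CBD-anxiety, 28.2 CPM in vehicle-anxiety, 29 CPM in CBD-neutral and 30.7 CPM in vehicle-neutral libraries. It is no member by the rule, and its log2 fold changes were -0.13 (SE 0.0881) for the cue in vehicle rats, 0.05 (SE 0.0881) for CBD under the anxiety cue and -0.10 (SE 0.0882) for CBD under the neutral cue. The same table lists 42 pseudogenes named after 18 of the members, so reads of near-identical copies may be split in the counts of those genes. Of the other 37 members Ndufb1 had the fewest counts, with a mean of 7.01 CPM over all libraries, and Ndufs1 was among those with the most, with 215 CPM, and no library had fewer than 71 counts of any of them.

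The members were high together or low together in the libraries at the extremes, and their spread was widest in vehicle-neutral libraries. The mean log2 CPM of the 37 members was 5.68 to 5.91 in CBD-anxiety libraries (median 5.72) and 5.56 to 5.87 in vehicle-anxiety libraries (median 5.71). It was 5.66 to 5.84 in CBD-neutral libraries (median 5.76) and 5.63 to 6.27 in vehicle-neutral libraries (median 5.86). The 4 ranges overlapped. Vehicle-neutral library 6 had the highest value, with all 37 members above their group mean, and it was the highest of the 32 libraries for 33 members. Vehicle-anxiety library 3 had the lowest value, with 0 of 37 members above their group mean, and it was the lowest of 32 for 17 members. The SD of log2 CPM within a group was largest in vehicle-neutral libraries for 36 of 37 members. Its median over members was 0.123 in CBD-anxiety, 0.124 in vehicle-anxiety, 0.0993 in CBD-neutral and 0.233 in vehicle-neutral libraries. In vehicle-neutral library 6 the mean log2 CPM was also the highest of its group for 38 nuclear genes of complexes II to V (7.08, group median 6.69) and for 89 genes of cytosolic ribosomal proteins (6.57, group median 5.99). Its total was 20.3 M counts, its Drd1 level 340 CPM and its Plin1 level 1.03 CPM. What part tissue or RNA quality had in this library was not tested.

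**Figure D1:**
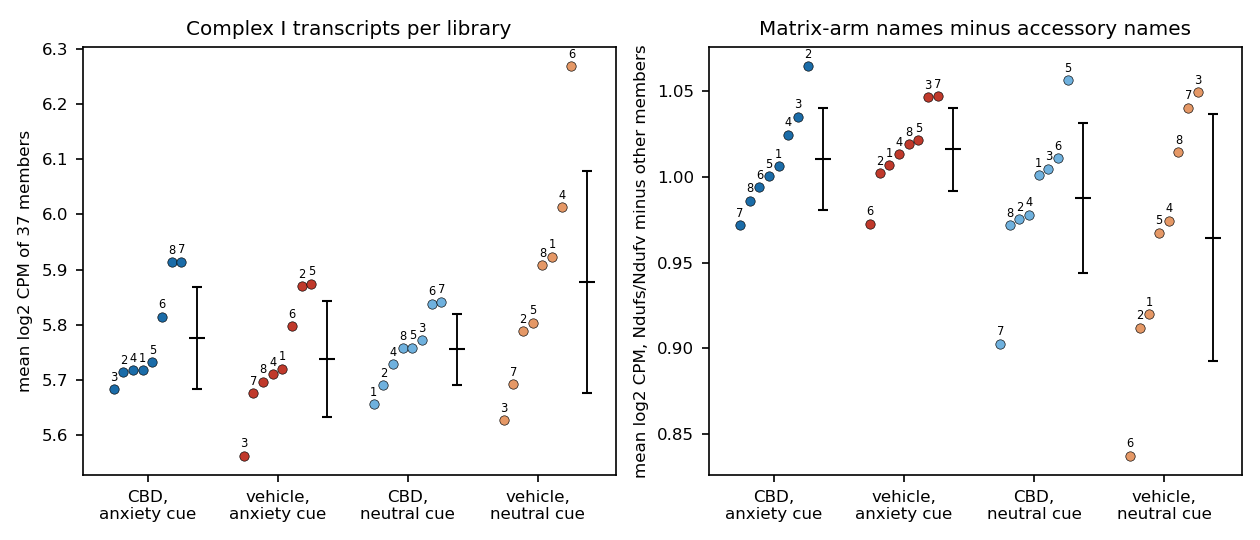
The left panel plots the mean log2 CPM (TMM-scaled) of the 37 members for each library, and the right panel the mean of the 10 Ndufs and Ndufv members minus the mean of the 27 others. Points are libraries with their number, and bars are the group mean ± SD (n = 8). Vehicle-neutral library 6 stands highest on the left (6.27) and lowest on the right (0.84).

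The cue was compared in rats that had vehicle, which asks whether the anxiety cue alone was accompanied by a difference in these transcripts. No member passed the threshold of adjusted p 0.05 (0 of 37, against 0% of all 17059 genes; edgeR's quasi-likelihood test with Benjamini-Hochberg adjustment over all genes). The members' log2 fold changes, anxiety over neutral cue, ranged from -0.36 to 0.01, with a median of -0.161, against 0.000368 over all genes. Of the 37, 36 were below 0, against 49.9% of all genes, and Ndufa10 was above it. At an unadjusted p under 0.05, 16 members were lower with the anxiety cue, against 6.34% of all genes. They were 3 Ndufs and Ndufv genes, Ndufs5 and Ndufv2 among them, and 13 of the other 27. Leaving out vehicle-neutral library 6 gave a median of -0.0966, with 33 of 37 below 0 and 1 member lower at an unadjusted p under 0.05, against 5.5% of all genes in that fit. The count was also 1 (against 2.58%) without the 10 libraries at 20 CPM or more of Alb, 4 (3.18%) with tissue covariates and 6 (4.08%) in a fit to the 2 groups alone. It was 8 without vehicle-neutral library 4 (3.66%), vehicle-anxiety library 3 (4.44%) or vehicle-anxiety library 7 (4.18%), and 25 without vehicle-neutral library 3 (8.61%). Without the 6 libraries at 20 CPM or more of Slc17a6 it was 21 (1221 of 17261 genes), with a median of -0.2 and 35 of 37 below 0. The count was 23 without vehicle-anxiety library 2 (1200 of 17148 genes). It was 22 without vehicle-neutral library 2 (1742 of 17140) and 21 without vehicle-neutral library 7 (1152 of 17142). In the same comparison all 14 markers of medium spiny neurons were above 0 (median 0.453), 7 of 8 markers of septal and subcortical neurons below 0 (median -0.846), all 8 oligodendrocyte markers below 0 (median -0.111) and all 5 fat markers below 0 (median -0.736). The 4 liver markers tested were above 0 (median 1.17), and 2 of 4 cortical markers (median -0.336). The fat markers summed to 16.7 to 75.4 CPM in vehicle-anxiety libraries, against 16.2 to 126 CPM in vehicle-neutral libraries. With the marker levels of septal, cortical and oligodendrocyte cells as covariates, the members' median was -0.119 and 35 of 37 were below 0.

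Ndufa8, a supernumerary subunit on the intermembrane side of the membrane arm, had the smallest p. It had 40.1 to 67.7 CPM in vehicle-anxiety libraries (median 44.6), against 46.5 to 79.6 CPM in vehicle-neutral libraries (median 57.4). The ranges overlapped, with vehicle-anxiety library 5 at the top of its group. Its log2 fold change was -0.36 (SE 0.106, adjusted p = 0.353). Ndufa12, a matrix-arm subunit, had 39.2 to 55.5 CPM in vehicle-anxiety libraries (median 46.5), against 40.6 to 74.6 CPM in vehicle-neutral libraries (median 54.3). Its log2 fold change was -0.24 (SE 0.0893, adjusted p = 0.374). Ndufa2, a small matrix-arm subunit with a thioredoxin-like fold, had 16.5 to 25.6 CPM in vehicle-anxiety libraries (median 19.5), against 18.9 to 35.6 CPM in vehicle-neutral libraries (median 26.1). This was a log2 fold change of -0.31 (SE 0.115, adjusted p = 0.374). Ndufc2, a membrane-arm subunit, had 52.5 to 68.2 CPM in vehicle-anxiety libraries (median 59.2), against 56.3 to 87.3 CPM in vehicle-neutral libraries (median 69.5). Its log2 fold change was -0.19 (SE 0.0726, adjusted p = 0.374). In all 4 genes the highest vehicle-neutral value was that of library 6. At the other end, Ndufa10 (0.01, SE 0.0508) and Ndufv1 (-0.02, SE 0.0583) had log2 fold changes near 0.

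**Figure D2:**
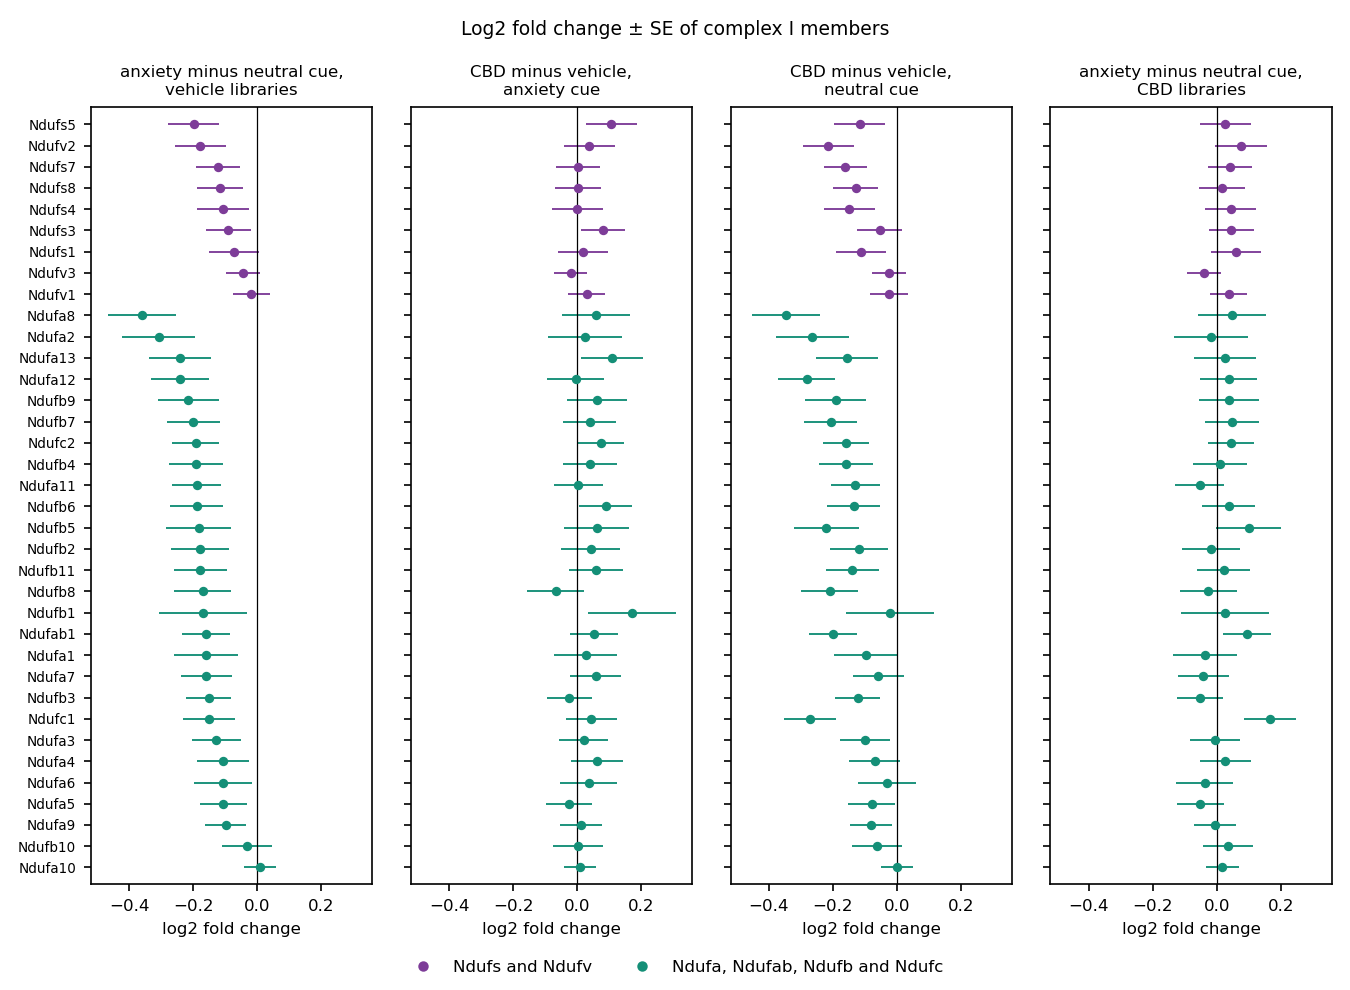
Log2 fold change (x axis) and SE (bars) of members from the edgeR fit to all 32 libraries, 1 row for each gene and 1 panel for each comparison, with Ndufs and Ndufv genes above the others. For all members drawn but 1 in each panel, points lie left of 0 in the panel of vehicle libraries and in the panel of CBD under the neutral cue, and they lie on both sides of 0 in the other two.

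CBD was next compared with vehicle among rats given the anxiety cue, which asks whether CBD went with a difference in the presence of that cue. The members' values lay close to 0 here. No member passed the threshold (0 of 37, against 0% of all genes), and none reached an unadjusted p under 0.05, against 0.75% of all genes higher and 0.832% lower. With voom 1 member was higher at that level (against 4.09% of all genes). The median log2 fold change of the members, CBD over vehicle, was 0.0388 (range -0.07 to 0.17), against -0.00331 over all genes, and 32 of 37 were above 0, against 48.3% of all genes. The median was 0.00808, with 23 of 37 above 0, without CBD-anxiety library 8. With the 3 marker lists as covariates it was -0.00777, with 15 of 37 above 0. In this comparison all 8 oligodendrocyte markers (median -0.151) and all 5 fat markers (median -1.1) were below 0. Of 14 medium spiny neuron markers 11 were below 0 (median -0.0451). Above 0 were 7 of 8 septal and subcortical markers (median 0.281), 3 of 4 cortical (median 0.317) and 3 of 4 liver markers (median 0.562). Ndufs5 had 42.7 to 57.7 CPM in CBD-anxiety libraries (median 49.2), against 40.6 to 51.3 CPM in vehicle-anxiety libraries (median 46.1), a log2 fold change of 0.11 (SE 0.0798). Ndufb1, a membrane-arm subunit and the member with the fewest counts, had 5.82 to 10 CPM in CBD-anxiety libraries (median 6.79), against 5.28 to 7.4 CPM in vehicle-anxiety libraries (median 6.64), a log2 fold change of 0.17 (SE 0.138). Ndufs3, a core subunit of the matrix arm, was at 0.08 (SE 0.0699). Ndufa13, also known as GRIM-19, had 59.2 to 76.1 CPM in CBD-anxiety libraries (median 68.7), against 50.9 to 82 CPM in vehicle-anxiety libraries (median 61.2), a log2 fold change of 0.11 (SE 0.0966). These were the 4 smallest p-values, each with an adjusted p of 1, and the groups overlapped in all of them.

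Among rats given the neutral cue, the comparison of CBD with vehicle shared its 8 vehicle libraries with the comparison of the cues above, and each of the 4 groups enters 2 of the pairwise comparisons, so their values are not independent. No member passed the threshold (0 of 37, against 0% of all genes). The median log2 fold change of the members, CBD over vehicle, was -0.131 (range -0.35 to 0.00), against 0.00548 over all genes. It was below 0 for 36 of 37 members, against 49.1% of all genes. An unadjusted p under 0.05 with a lower level in CBD-neutral libraries was found for 12 members, 3 Ndufs and Ndufv genes (Ndufs7 and Ndufv2 among them) and 9 others, against 12% of all genes. The count was 5 without vehicle-neutral library 6 (against 12.2% of all genes in that fit), 6 without vehicle-neutral library 4 (7.17%) and 20 without vehicle-neutral library 3 (14.2%). It was 6 with voom (9.92%) and 3 with tissue covariates (2.14%). Without the 10 libraries at 20 CPM or more of Alb it was 2 (7.63%), with a median of -0.0876 and 31 of 37 below 0. Without the 6 libraries at 20 CPM or more of Slc17a6 it was 12 (1040 of 17261 genes), with a median of -0.166 and 35 of 37 below 0. The count was 18 without vehicle-neutral library 7 (1941 of 17142 genes). Marker lists of cell types had values away from 0 too. The 14 medium spiny neuron markers were all above 0 (median 0.531), 7 of 8 septal and subcortical markers below 0 (median -0.936), the 8 oligodendrocyte markers all below 0 (median -0.418) and the 5 fat markers all below 0 (median -3.64). Of 4 liver markers tested 3 were above 0 (median 2.1, range -0.05 to 4.67), and the 4 cortical markers tested were all above 0 (median 1.02, range 0.38 to 4.49). Cortical markers summed to 156 to 1420 CPM (median 235) in CBD-neutral libraries, against 121 to 299 CPM (median 183) in vehicle-neutral libraries. The cortical marker Slc17a7 was at 877 CPM in CBD-neutral library 6, 62.3 CPM in library 7 and at most 6.38 CPM in the others of that group. Liver markers summed to 3.96 to 307 CPM in CBD-neutral libraries, against 4.58 to 12.8 CPM in vehicle-neutral libraries. The part of these tissues in the members' values was not tested apart from the settings given here. The fat markers summed to 16 to 22.3 CPM in CBD-neutral libraries, against 16.2 to 126 CPM in vehicle-neutral libraries. With the marker lists of septal, cortical and oligodendrocyte cells as covariates the members' median was -0.117. Without vehicle-neutral library 6 it was -0.0702, with 28 of 37 below 0.

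Ndufc1, a small membrane-arm subunit, had 16.5 to 20.6 CPM in CBD-neutral libraries (median 18.6), against 19.2 to 27 CPM in vehicle-neutral libraries (median 22.4). Its log2 fold change was -0.27 (SE 0.0807, adjusted p = 0.101). The overlap of the groups was limited to values between 19.2 and 20.6 CPM. Ndufa8 had 43.7 to 55.1 CPM in CBD-neutral libraries (median 46.1), against 46.5 to 79.6 CPM in vehicle-neutral libraries, a log2 fold change of -0.35 (SE 0.106, adjusted p = 0.105). Ndufa12 had 40.6 to 54.9 CPM in CBD-neutral libraries (median 45.9), with a log2 fold change of -0.28 (SE 0.0895, adjusted p = 0.112). Ndufab1, the mitochondrial acyl carrier protein, which also serves fatty acid and lipoic acid synthesis, had 46.4 to 53.7 CPM in CBD-neutral libraries (median 50.1), against 48.2 to 68.5 CPM in vehicle-neutral libraries (median 58.5). It had a log2 fold change of -0.20 (SE 0.0751, adjusted p = 0.14). No member had groups without overlap in any of the 4 pairwise comparisons. Over all genes the share without overlap was 0.00586% lower and 0% higher for the cue in vehicle rats, 0.0762% lower and 0.0293% higher for CBD under the neutral cue, 0.0176% higher and 0% lower for the cue in CBD rats, and 0% for CBD under the anxiety cue.

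**Figure D3:**
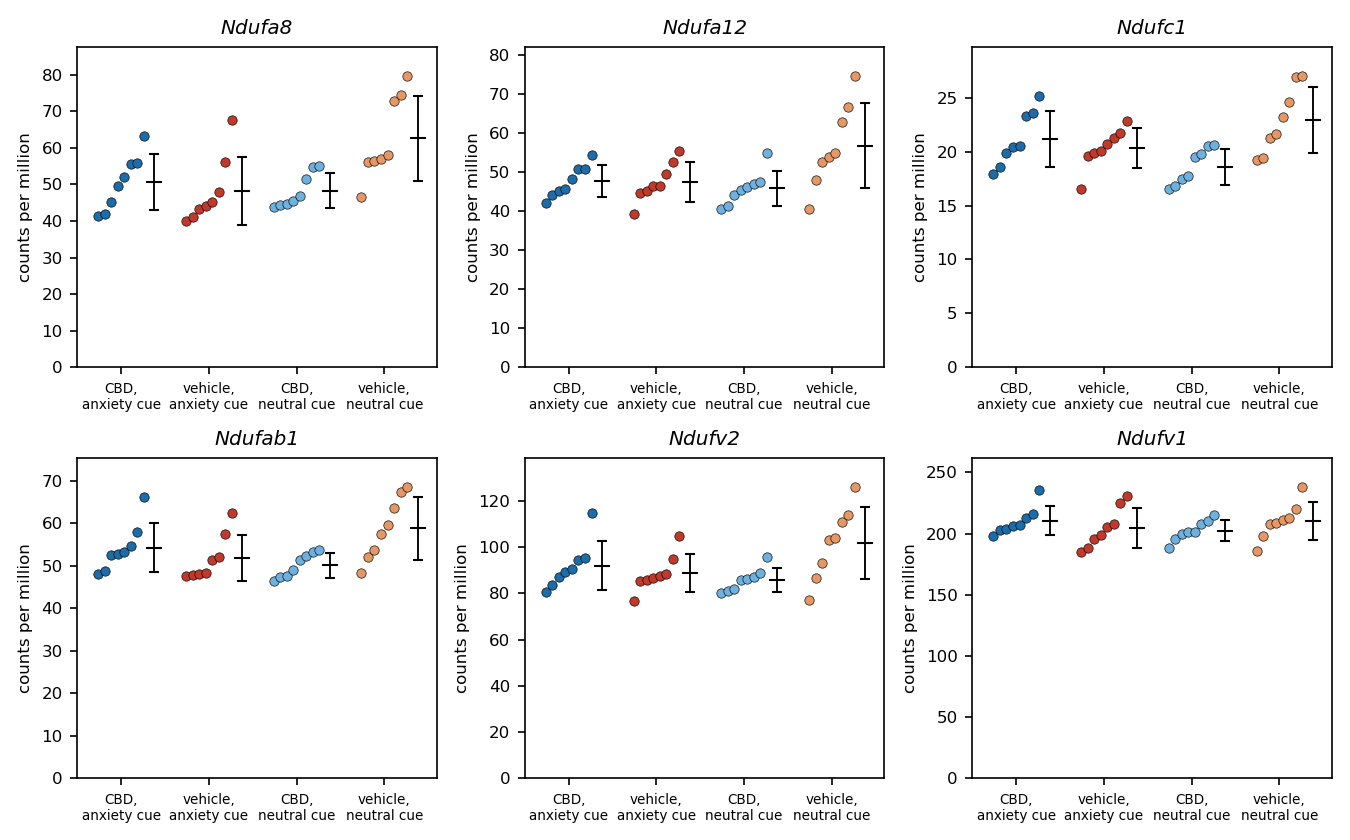
Levels in CPM (y axis, from 0) of 6 members in the 4 groups, with 1 point for each library and the group mean ± SD (n = 8). Vehicle-neutral libraries reach the highest values in Ndufa8 (79.6), Ndufa12 (74.6), Ndufc1 (27), Ndufab1 (68.5) and Ndufv2 (126), while the 4 groups of Ndufv1 have medians between 201 and 210.

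Within rats given CBD, the comparison of the cues gave small values for the members. No member passed the threshold (0 of 37, against 0% of all genes), 25 of 37 were above 0 (against 48.8% of all genes), and the median log2 fold change, anxiety over neutral cue, was 0.0263 (range -0.05 to 0.17), against -0.00347 over all genes. Without CBD-anxiety library 8 the median was 3.36e-05. Ndufc1 was the 1 member with an unadjusted p under 0.05 in edgeR's quasi-likelihood test (adjusted p = 0.995), and 1.65% of all genes were higher at that level. No member was at that level in 16 of 32 removals of 1 library. It had 17.9 to 25.2 CPM in CBD-anxiety libraries (median 20.5), against 16.5 to 20.6 CPM in CBD-neutral libraries (median 18.6), a log2 fold change of 0.17 (SE 0.0807). Ndufab1 followed at 0.09 (SE 0.0751), and Ndufb5, a membrane-arm subunit, was at 0.10 (SE 0.102). All 14 medium spiny neuron markers (median -0.105) and the 4 cortical markers tested (median -1.17) were below 0 in this comparison. All 8 oligodendrocyte markers (median 0.114), all 5 fat markers (median 1.84) and 7 of 8 septal and subcortical markers (median 0.462) were above 0. Of 4 liver markers tested 1 was above 0 (median -0.265).

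The interaction of cue and CBD, the CBD difference with the anxiety cue minus the CBD difference with the neutral cue, draws on all 4 groups. No member passed the threshold (0 of 37, against 0% of all genes). All 37 were above 0, against 48.8% of all genes, with a median of 0.16 (range 0.00 to 0.41), against -0.00754 over all genes. At an unadjusted p under 0.05, 8 members were above 0 (2 Ndufs and Ndufv genes and 6 others), against 7.02% of all genes. Without single libraries the count was 3 (vehicle-neutral 4, against 4.42% of all genes), 4 (vehicle-neutral 6, 7.14%), 4 (vehicle-anxiety 3, 5.56%), 4 (CBD-anxiety 7, 4.6%), 14 (vehicle-neutral 3, 9.01%) and 14 (vehicle-neutral 7, 6.94%). It was 2 without the Alb libraries (5.92%) and 0 with tissue covariates (2.41%). Without the 6 libraries at 20 CPM or more of Slc17a6 it was 9 (720 of 17261 genes), with a median of 0.219 and 36 of 37 above 0. Ndufc1 had an interaction of 0.32 on the log2 scale (SE 0.114, adjusted p = 0.321) and Ndufa8 one of 0.41 (SE 0.15, adjusted p = 0.321). Ndufab1 had 0.25 (SE 0.106, adjusted p = 0.335). Without vehicle-neutral library 6 the median was 0.088 and 32 of 37 were above 0. For the interaction all 14 medium spiny neuron markers were below 0 (median -0.578), as were the 4 cortical (median -0.831) and 4 liver markers tested (median -1.58). All 8 oligodendrocyte markers (median 0.28), all 5 fat markers (median 2.75) and 7 of 8 septal and subcortical markers (median 1.26) were above 0. Their part in the members' values was not tested.

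Core subunits were described by their levels in every group. Ndufv1, which binds NADH and the flavin, had 198 to 236 CPM (median 206) in CBD-anxiety, 185 to 231 CPM (median 202) in vehicle-anxiety, 188 to 215 CPM (median 201) in CBD-neutral and 186 to 238 CPM (median 210) in vehicle-neutral libraries. Its medians differed by less than the range within any group. Ndufv2, its iron-sulfur partner, had 80.7 to 115 CPM (median 90) in CBD-anxiety, 76.7 to 105 CPM (median 87.1) in vehicle-anxiety, 80.4 to 95.8 CPM (median 86.1) in CBD-neutral and 77.2 to 126 CPM (median 103) in vehicle-neutral libraries. Ndufs1, which carries several iron-sulfur clusters, had 200 to 236 CPM (median 218) in CBD-anxiety, 188 to 264 CPM (median 206) in vehicle-anxiety, 191 to 229 CPM (median 201) in CBD-neutral and 174 to 287 CPM (median 217) in vehicle-neutral libraries. For both genes the vehicle-neutral range held both the widest spread and the highest value. Ndufs7, which carries an iron-sulfur cluster next to the ubiquinone site, had 70.5 to 84.3 CPM (median 76.9) in CBD-anxiety, 67 to 92.7 CPM (median 74) in vehicle-anxiety, 64.6 to 82.7 CPM (median 75.9) in CBD-neutral and 69.3 to 99.9 CPM (median 85.2) in vehicle-neutral libraries. In Ndufs7 the vehicle-neutral group had the highest median, and all ranges overlapped. Ndufs3 had 51.4 to 64 CPM (median 54.8) in CBD-anxiety, 46.2 to 57.3 CPM (median 53.3) in vehicle-anxiety, 49.7 to 57.9 CPM (median 52.7) in CBD-neutral and 45.8 to 66.7 CPM (median 57.2) in vehicle-neutral libraries. Ndufs8, which carries iron-sulfur clusters on the way to ubiquinone, had 35.1 to 44.7 CPM (median 39.1) in CBD-anxiety, 34.8 to 46.3 CPM (median 39) in vehicle-anxiety, 35.5 to 42.1 CPM (median 38.3) in CBD-neutral and 35 to 52.5 CPM (median 43.1) in vehicle-neutral libraries. The log2 fold changes of the 7 core subunits were all below 0 for the anxiety cue in vehicle rats (median -0.116) and for CBD under the neutral cue (median -0.129), and none passed the threshold.

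The genes named Ndufs and Ndufv were set beside those with the other names. The medians of log2 fold changes were -0.111 for the 10 Ndufs and Ndufv genes and -0.170 for the 27 others with the anxiety cue in vehicle rats. For CBD under the anxiety cue they were 0.0253 for Ndufs and Ndufv genes and 0.0402 for the others. For CBD under the neutral cue they were -0.123 for Ndufs and Ndufv genes and -0.135 for the others. The cue in CBD rats gave 0.0429 for Ndufs and Ndufv genes and 0.0214 for the others, and the interaction gave 0.143 for Ndufs and Ndufv genes and 0.194 for the others. By class, the cue in vehicle rats gave medians of -0.159 for 14 Ndufa and Ndufab genes, -0.178 for 11 Ndufb genes, -0.171 for 2 Ndufc genes, -0.116 for 7 Ndufs genes and -0.0447 for 3 Ndufv genes. Assigned by structure, whatever their name, 15 matrix-arm subunits had a median of -0.106. The 21 members not on that list, with Ndufa4 left out, had one of -0.178. The 8 matrix-arm subunits outside the core had -0.106, beside -0.116 for the core. These differences between arms were not tested.

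Per library, the mean log2 CPM of Ndufs and Ndufv genes minus that of the others was 0.97 to 1.06 in CBD-anxiety (mean 1.01, SD 0.0297), 0.97 to 1.05 in vehicle-anxiety (mean 1.02, SD 0.0242), 0.90 to 1.06 in CBD-neutral (mean 0.99, SD 0.0438) and 0.84 to 1.05 in vehicle-neutral libraries (mean 0.96, SD 0.0721). The group means lay within 1 SD of the vehicle-neutral group. The lowest value was again that of vehicle-neutral library 6, in which the genes of both sets were high and those named otherwise more so. Within the Ndufv class, Ndufv3, a supernumerary subunit with splice forms that differ between tissues, had 58.2 to 66.5 CPM (median 62.8) in CBD-anxiety, 57.5 to 69.1 CPM (median 62.4) in vehicle-anxiety, 60.3 to 65.8 CPM (median 64.6) in CBD-neutral and 60 to 78.9 CPM (median 65.7) in vehicle-neutral libraries. It had the smallest spread of all members in CBD-anxiety (SD of log2 CPM 0.0681) and CBD-neutral libraries (0.0591).

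Ndufa4, with the most counts among Ndufa genes, had 134 to 163 CPM (median 157) in CBD-anxiety, 137 to 156 CPM (median 147) in vehicle-anxiety, 143 to 175 CPM (median 146) in CBD-neutral and 133 to 222 CPM (median 150) in vehicle-neutral libraries. Leaving this complex IV subunit out gave a median of -0.165 over 36 members for the cue in vehicle rats. Ndufb8, the membrane-arm subunit with the most counts among Ndufb genes, had log2 fold changes of -0.17 (SE 0.0892) for the cue in vehicle rats, -0.07 (SE 0.0892) for CBD under the anxiety cue and -0.21 (SE 0.0893) for CBD under the neutral cue. Ndufb1, with the fewest, had -0.17 (SE 0.138), 0.17 (SE 0.138) and -0.02 (SE 0.138) in these comparisons.

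Genes that build or regulate the complex were taken from lists. Of 20 assembly factors 19 were tested, and 15 were below 0 for the cue in vehicle rats (median -0.0569), against 49.9% of all genes. At an unadjusted p under 0.05, 2 were lower, against 6.34% of all genes. They were Ndufaf5, which hydroxylates Ndufs7 (-0.21, SE 0.0741, adjusted p = 0.374), and Timmdc1, which helps build the membrane arm (-0.13, SE 0.0552, adjusted p = 0.376). For CBD with the neutral cue, 12 of 19 were below 0 (median -0.0404), against 49.1% of all genes. At an unadjusted p under 0.05, 4 were lower, against 12% of all genes. Among them were Dmac2 at -0.15 (SE 0.0564, adjusted p = 0.138) and Chchd4, an import receptor of the intermembrane space, at -0.23 (SE 0.093, adjusted p = 0.162). For CBD with the anxiety cue the median was 0.00897, with Ndufaf5 at 0.13 (SE 0.0741) and Nubpl, an iron-sulfur carrier for complex I, at -0.17 (SE 0.117). For the cue in CBD rats it was 0.0267, with Tmem186 at 0.14 (SE 0.0826). No assembly factor passed the adjusted threshold in any comparison.

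Regulators of nuclear respiratory genes, 16 in all, had medians of 0.00407 for the cue in vehicle rats, 0.0127 for CBD under the anxiety cue, 0.0193 for CBD under the neutral cue and -0.0156 for the cue in CBD rats. None passed the adjusted threshold. For the cue in vehicle rats Pprc1, a coactivator of the PGC-1 family, was at 0.18 (SE 0.0645, adjusted p = 0.374) and Ppargc1b, another, at 0.23 (SE 0.149, adjusted p = 0.459). For CBD with the neutral cue Ppara, a lipid-sensing nuclear receptor, was at 0.39 (SE 0.137, adjusted p = 0.125) and Ppargc1b at 0.41 (SE 0.149, adjusted p = 0.132). Esrrg, an estrogen-related receptor, was at -0.78 (SE 0.367, adjusted p = 0.205) in that comparison. Under the anxiety cue, CBD against vehicle, Esrra, another such receptor, was at 0.15 (SE 0.0917) and Sirt3, a mitochondrial deacetylase, at -0.04 (SE 0.0659), and for the cue in CBD rats Ppara was at -0.34 (SE 0.137, adjusted p = 0.995) and Nrf1 at 0.06 (SE 0.051). Yy1, whose motif letters are printed above, was at 0.07 (SE 0.0473) for the cue in vehicle rats and 0.12 (SE 0.0474) for CBD with the neutral cue. 

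Nuclear genes of the other respiratory complexes and of the cytosolic ribosome had medians close to those of complex I in each comparison. For the cue in vehicle rats the median was -0.161 for the 37 members, -0.156 for 38 genes of complexes II to V and -0.152 for 89 cytosolic ribosomal protein genes. For CBD under the anxiety cue it was 0.0388 for the members, 0.0406 for complexes II to V and 0.0248 for ribosomal proteins. For CBD under the neutral cue it was -0.131 for the members, -0.140 for complexes II to V and -0.142 for ribosomal proteins. For the cue in CBD rats it was 0.0263 for the members, 0.0267 for complexes II to V and 0.0212 for ribosomal proteins. Sdhc, a membrane anchor of complex II, was at -0.28 (SE 0.0845, adjusted p = 0.102) and Cox5a, a subunit of complex IV, at -0.22 (SE 0.0771, adjusted p = 0.124) for CBD under the neutral cue. No gene of these lists passed the adjusted threshold. The likeness of the medians was not tested.

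The libraries kept in the fit moved the number of members called. Plin1 was at 5 CPM or more in 10 libraries, and without these the vehicle-neutral group held libraries 6, 7 and 8 alone. Libraries 7 and 8 were among those high in Slc17a6 (37.1 and 40.9 CPM) and low in Drd1 (150 and 110 CPM). They were the whole vehicle-neutral group in the fits below that also leave out library 6. In the fit without the Plin1 libraries that kept library 6, 14 members passed the threshold for the cue in vehicle rats, against 16.9% of all genes. They were 4 Ndufs and Ndufv genes and 10 others, all lower. The members' median was -0.289, with Ndufa8 at -0.65 (adjusted p = 0.00484). For CBD with the neutral cue 11 passed, all lower, against 15.7% of all genes (median -0.224), and for the interaction 9 passed, against 8.4% of all genes (median 0.318). When vehicle-neutral library 6 was also left out, 3 members passed in each of these 3 comparisons, against 20.2, 18.8 and 14.8% of all genes, shares above that of the members, and the medians were -0.109, -0.047 and 0.0972. At an unadjusted p under 0.05 the fit without the Plin1 libraries had 25 members lower for the cue in vehicle rats (against 17.5% of all genes), 21 lower for CBD with the neutral cue (16.4%) and 20 higher for the interaction (14%). When vehicle-neutral library 6 was also left out, 7 were lower for the cue in vehicle rats (17.5%), 7 lower for CBD with the neutral cue (16.5%) and 5 higher for CBD with the anxiety cue (2.14%). For the interaction 10 were higher (2725 of 17857 genes) with library 6 also left out. This second setting was chosen after the data were seen, and what moved these values was not tested.

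**Figure D4:**
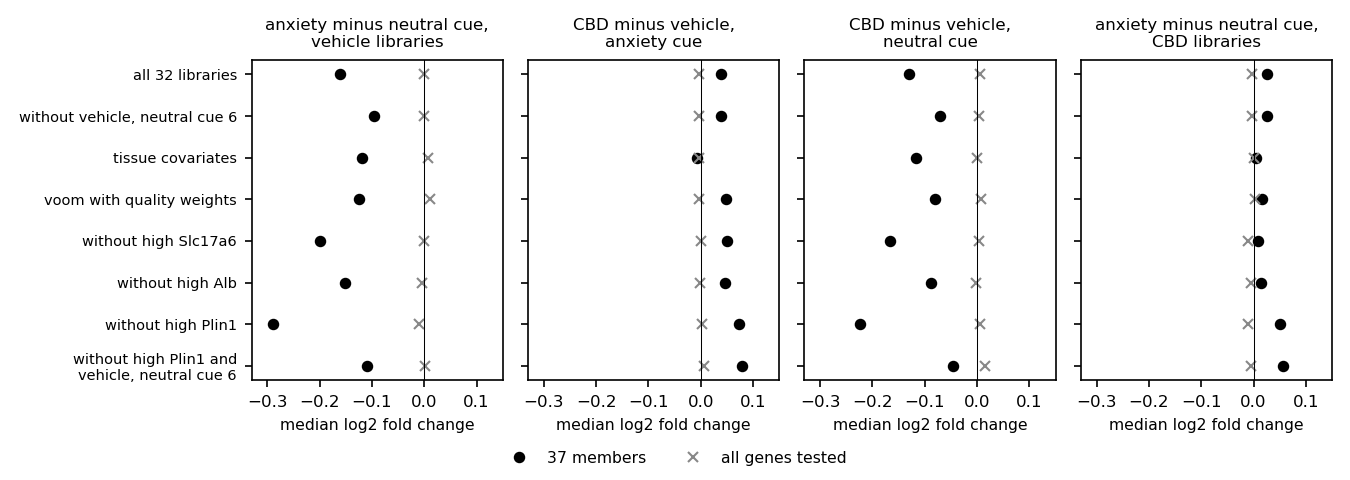
Median log2 fold change (x axis) of the 37 members (filled points) and of all genes tested (crosses) in 4 comparisons, for all libraries and 7 other settings of libraries, covariates or test. The members' median stays below 0 in all settings drawn, between -0.289 and -0.047, in the panel of vehicle libraries and in that of CBD under the neutral cue. In the panel of CBD under the anxiety cue it is at -0.00777 with tissue covariates.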

How the data were processed

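RNA was extracted with a Zymo kit and, after selection for polyA, sequenced by Illumina, per the labels' protocols. The authors deposited whole-number read counts per gene symbol. STAR, featureCounts and DESeq2 and the builds mRatBN7.2 and Rnor_6.0 are named in the submitters' processing notes, and their versions, roles and strand setting are not given in the sources used here. Groups came from the treatment label. Library numbers follow accession order and pair nothing.

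The test was edgeR's quasi-likelihood test (edgeR 4.0.16, R 4.3.3). After filterByExpr by group, 17059 genes were kept, and TMM scaled the libraries. The model had 1 mean for each group and used all 32 libraries, so the spread is estimated once over the 4 groups. Benjamini-Hochberg adjustment ran over all genes kept, with a threshold of 0.05. Log2 CPM carry a prior count of 2. The script was tested on simulated data. No 2 libraries were identical, and all 112 pairs within groups differed beyond counting noise in a chi-square test (5.24 to 102.7 per degree of freedom). Total counts of 11.65 to 24 M limit precision.

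Members, lists and settings were chosen with earlier results of these data known. The list of complexes II to V was added after the values were seen. Named were the members past the threshold (there were none), the 4 with the smallest p in each comparison, the core subunits, the highest and lowest in CPM of each class, and the 2 smallest p-values of other lists. Ndufa10, Yy1, Esrrg and a few members named from counts of 5 or fewer were chosen after their values were seen. A member that this rule names is counted in the totals and medians and is not reported by name here. Sequences come from RefSeq tables for GRCr8, and their coordinates are on that build alone. Other settings tried were DESeq2 1.42.0 and its size factors, voom of limma 3.58.1 with quality weights, other filters, only the 2 groups compared, tissue covariates, and leaving out single libraries or those with 20 CPM or more of Slc17a6 or Alb or 5 CPM or more of Plin1. Genes encoded in mitochondrial DNA are not analysed here.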

Additional observations from a re-analysis of the deposited data

Results flagged for a closer look

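Within groups of 8 libraries, 8 of 76 groups checked had 1 library far from the rest, with a gap to its nearest neighbour of at least 0.526 of the group's range, and chance gives about 4. The gap was 0.559 for the highest CBD-neutral library of Ndufa12 (library 7), 0.599 for the lowest vehicle-anxiety library of Ndufc1 (library 3) and 0.563 for the highest CBD-anxiety library of Ndufc2 (library 7). Ndufs1 had a gap of 0.658 for its highest vehicle-anxiety library (library 5) and 0.526 for its highest CBD-neutral library (library 6). Ndufs8 had one of 0.528 for its highest vehicle-anxiety library (library 2). Ndufv2 had gaps of 0.585 for its highest CBD-anxiety library (library 7) and 0.572 for its highest CBD-neutral library (library 6). None of the 8 was in a vehicle-neutral group, where the spread of the members was largest.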

How the results depend on the processing

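No paired analysis was possible because the labels give the groups no shared replicate numbers. Of 1976 alternatives, 1944 kept the direction and the side of the threshold, or stayed within the spread between libraries, of the values reported. The spread used for medians was 0.127, the pooled SD of the members' mean log2 CPM within groups. It exceeds the medians of 0.0388 (CBD, anxiety cue) and 0.0263 (cue, CBD libraries). The change from 0.0388 to -0.00777 with tissue covariates was therefore counted as kept. Single removals also included libraries of groups outside a comparison, which hardly moved its median. The count of 1944 is thus no measure of how stable the values are. The count of members past the threshold stayed at 0 in every comparison under DESeq2, its size factors, voom, both other filters, tissue covariates, the Slc17a6 and Alb settings and each removal of 1 library. Over all genes it was not always 0. For CBD with the neutral cue it was 382 of 19388 with DESeq2, 1 of 17059 with voom and 31 of 17261 in the Slc17a6 setting. Without vehicle-anxiety library 5 or 4 it was 165 of 17136 or 68 of 17128. The Slc17a6 setting gave 19 of 17261 for the cue in vehicle libraries. The interaction had 12 of 23313 with DESeq2 and 10 of 17136 without vehicle-anxiety library 5. The count of members was 14 for the cue in vehicle libraries, 11 for CBD with the neutral cue and 9 for the interaction without libraries at 5 CPM or more of Plin1 (against 16.9, 15.7 and 8.4% of all genes), and 3 in each of these when vehicle-neutral library 6 was also left out, a smaller share than that of all genes (20.2, 18.8 and 14.8%). Without the Plin1 libraries the members' median was -0.289 for the cue in vehicle libraries (Ndufs and Ndufv genes -0.256) and 0.318 for the interaction (Ndufs and Ndufv genes 0.318). The vehicle-neutral group then held libraries 6, 7 and 8 alone, of which 7 and 8 were high in Slc17a6. Removing 1 library at a time gave members' medians of -0.197 to -0.0966 for the cue in vehicle libraries, 0.00808 to 0.0603 for CBD with the anxiety cue, -0.166 to -0.0702 for CBD with the neutral cue, 3.36e-05 to 0.0428 for the cue in CBD libraries and 0.088 to 0.199 for the interaction. The median of Ndufs and Ndufv genes minus that of the others changed sign for the interaction: it was -0.051, and 8.27e-05 without the Plin1 libraries, 0.0234 when vehicle-neutral library 6 was left out too, and -0.0638 to 0.0233 over single removals, above 0 without vehicle-neutral library 6 (0.0233) or CBD-anxiety library 8 (0.00283) and at -0.000571 without vehicle-neutral library 1. For CBD with the neutral cue it was 0.0125, and 0.0592 without libraries at 20 CPM or more of Slc17a6, -0.0142 with voom, -0.0069 without vehicle-neutral library 6 and also below 0 without vehicle-neutral library 4. The value for CBD with the anxiety cue was -0.015, and 0.00657 without CBD-anxiety library 8. It kept its sign in the settings run for the cue in vehicle and in CBD libraries. The causes were not tested. Ndufb1, the member with the fewest counts (as few as 71 in a library), had an SE of 0.138 for each pairwise comparison.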
